A study of Mus musculus with 24 samples.

Results

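The miR-15/16 family and the pair miR-103 and miR-107, all microRNAs (miRNAs), were followed through hippocampal exosome-enriched fractions (EEFs) from mice after status epilepticus. The members were chosen by their names in the count tables: mmu-mir-107-3p, mmu-mir-103-3p, mmu-mir-15a-5p, mmu-mir-15b-5p, mmu-mir-16-5p, mmu-mir-195a-5p, mmu-mir-322-5p and mmu-mir-497a-5p, written below without the species prefix. They make 8 of the 1073 mature miRNA names counted in the series. They were singled out because miR-107-3p had been found higher 24 h after kainic acid (KA) with both isolation methods. The values of the members at 24 h are therefore given as a description with no test. The question was whether miR-107-3p moved alone or together with miR-103-3p and the miR-15/16 members.

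Hippocampi were pooled to prepare EEFs from male C57BL/6 mice (the substrain C57BL/6OlaHsd in the study's methods) aged 6 to 9 weeks, and each library is labelled as a separate biological sample. KA, a glutamate receptor agonist, was injected at 0.3 µg in 0.2 µl into the basolateral amygdala, while control mice received PBS. According to the treatment protocol, midazolam at 8 mg/kg was given 40 minutes later, and blood was flushed from the vessels with PBS before dissection. The 8 groups combined PBS or KA with 24 h or 2 weeks after injection and with isolation by ultracentrifugation (UC) or by a precipitation kit (ExoQuick), and each held 3 libraries. Fractions were treated with RNase before RNA extraction to digest RNA outside vesicles.

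miRNAs are short RNAs that guide Argonaute proteins to partly complementary sites in messenger RNAs, and the seed, bases 2 to 8 counted from the 5′ end, sets most of that pairing. miR-16 and its relatives are known as brakes on the cell cycle that target cyclins and the survival factor BCL2, whereas miR-103 and miR-107 are encoded inside the pantothenate kinase genes and are known for effects on metabolism and on Dicer. Mature miRNAs are loaded into vesicles that most brain cells release.

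The mature sequences are printed because the seed and a single base near the 3′ end decide how the members group and how reads can be told apart. All 8 members matched entries of the RefSeq table for GRCm38.p6, and capitals mark the seed.
miR-107-3p: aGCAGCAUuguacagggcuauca
miR-103-3p: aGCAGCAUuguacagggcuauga
miR-15a-5p: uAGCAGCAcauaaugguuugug
miR-15b-5p: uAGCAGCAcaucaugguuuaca
miR-16-5p: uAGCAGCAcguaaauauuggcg
miR-195a-5p: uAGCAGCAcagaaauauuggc
miR-322-5p: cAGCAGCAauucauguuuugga
miR-497a-5p: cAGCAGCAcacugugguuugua

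The members did not share 1 seed. miR-107-3p and miR-103-3p carried GCAGCAU, which no other mature mouse miRNA among the 1679 in the table carried. The other 6 members carried AGCAGCA, which was found in 10 mature mouse miRNAs. Both seeds contain the letters GCAGCA, placed at bases 2 to 7 in miR-103-3p and miR-107-3p and at bases 3 to 8 in the miR-15/16 group. Of the 4 non-members with the AGCAGCA seed, miR-195b had 13 reads in all UC libraries and 182 in all kit libraries, miR-6419 had 1 read, and miR-6342 and miR-6353 had 0 reads, where a count of 0 allows up to 3 reads.

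miR-107-3p and miR-103-3p were identical at 22 of 23 bases. The only substitution, read from miR-103-3p to miR-107-3p and counted from the 5′ end, was G22C, so a read that ends before base 22 does not separate the pair. miR-16-5p and miR-195a-5p matched at 19 of 21 bases, and miR-15a-5p and miR-15b-5p matched at 18 of 22 with the first 11 in common.

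In the GENCODE M21 annotation of GRCm38, the hairpin of miR-107 lay in an intron of Pank1 on the minus strand at chr19:34820687-34820773. miR-103-3p can arise from a pair of hairpins, in an intron of Pank3 at chr11:35782396-35782481 and in an intron of Pank2 at chr2:131288052-131288137, both on the plus strand. miR-15a and 1 copy of miR-16 lay 54 bases apart on chromosome 14 in the long non-coding gene Dleu2, miR-15a in an intron (chr14:61632027-61632110) and miR-16-1 overlapping an exon (chr14:61631880-61631972). miR-15b (chr3:69009772-69009835) and the second copy of miR-16 (chr3:69009902-69009996) lay 66 bases apart in an intron of Smc4. miR-195a (chr11:70235042-70235135) and miR-497a (chr11:70234717-70234800) lay 241 bases apart. Neither of them, nor miR-322 on chromosome X (chrX:53054255-53054349), lay whole inside another annotated gene, with miRNA genes left out of the search. The mature count of miR-16-5p or miR-103-3p does not say which hairpin a read came from.

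Library totals ran from 85436 to 169639 miRNA reads with UC and from 154884 to 676726 with the kit, so that 1 read stood for between 5.90 and 11.7 CPM (counts scaled to a common library total) in UC libraries and for between 1.48 and 6.46 CPM in kit libraries. All 8 members were among the 420 miRNAs (UC) and 520 miRNAs (kit) that had over 1 CPM in at least 6 libraries. The neuronal miRNAs miR-9-5p, miR-124-3p and miR-128-3p were plentiful, at 28690 to 47854 CPM summed with UC and 42149 to 68940 CPM with the kit. Among markers of red cells, miR-486b-5p was present in every library (289 CPM or more), while miR-451a had a median of 0 CPM in UC libraries and of 30.0 CPM in kit libraries. No libraries of a group agreed within sampling noise. Nothing in the labels says how mice were divided among libraries, so p-values measure the spread between these samples.

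The members together took 0.256 to 0.531% of reads in UC libraries and 0.535 to 0.899% in kit libraries. In CPM scaled by trimmed means (TMM), the order with UC was miR-103-3p (1455 ± 409, SD, n = 12), miR-107-3p (1090 ± 434), miR-16-5p (824 ± 451), miR-497a-5p (266 ± 60.8), miR-15a-5p (170 ± 93.5), miR-195a-5p (48.2 ± 21.5), miR-322-5p (27.6 ± 19.7) and miR-15b-5p (7.37 ± 8.97). The ranges of every pair of neighbours in that order overlapped. With the kit, miR-16-5p came first at 2528 ± 292 CPM (SD, n = 12), ahead of miR-103-3p at 2146 ± 578 and miR-107-3p at 1589 ± 589. The kit order went on with miR-15a-5p (326 ± 105), miR-497a-5p (222 ± 62.6), miR-195a-5p (131 ± 30.0), miR-322-5p (47.8 ± 9.18) and miR-15b-5p (10.9 ± 5.79), with gaps between the ranges of miR-107-3p and miR-15a-5p, of miR-195a-5p and miR-322-5p, and of miR-322-5p and miR-15b-5p. miR-103-3p ranked 55th of all miRNAs with UC and 47th with the kit. miR-16-5p ranked 79th and 42nd, and miR-107-3p ranked 69th and 60th. miR-15b-5p rested on 11 reads in all UC libraries and 43 in all kit libraries, and 6 UC libraries and 1 kit library held 0 reads of it, which allows up to 3 in each. Its differences between groups were not readable at this depth. The plot of CPM by library shows every member in every library.

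**Figure D1:**
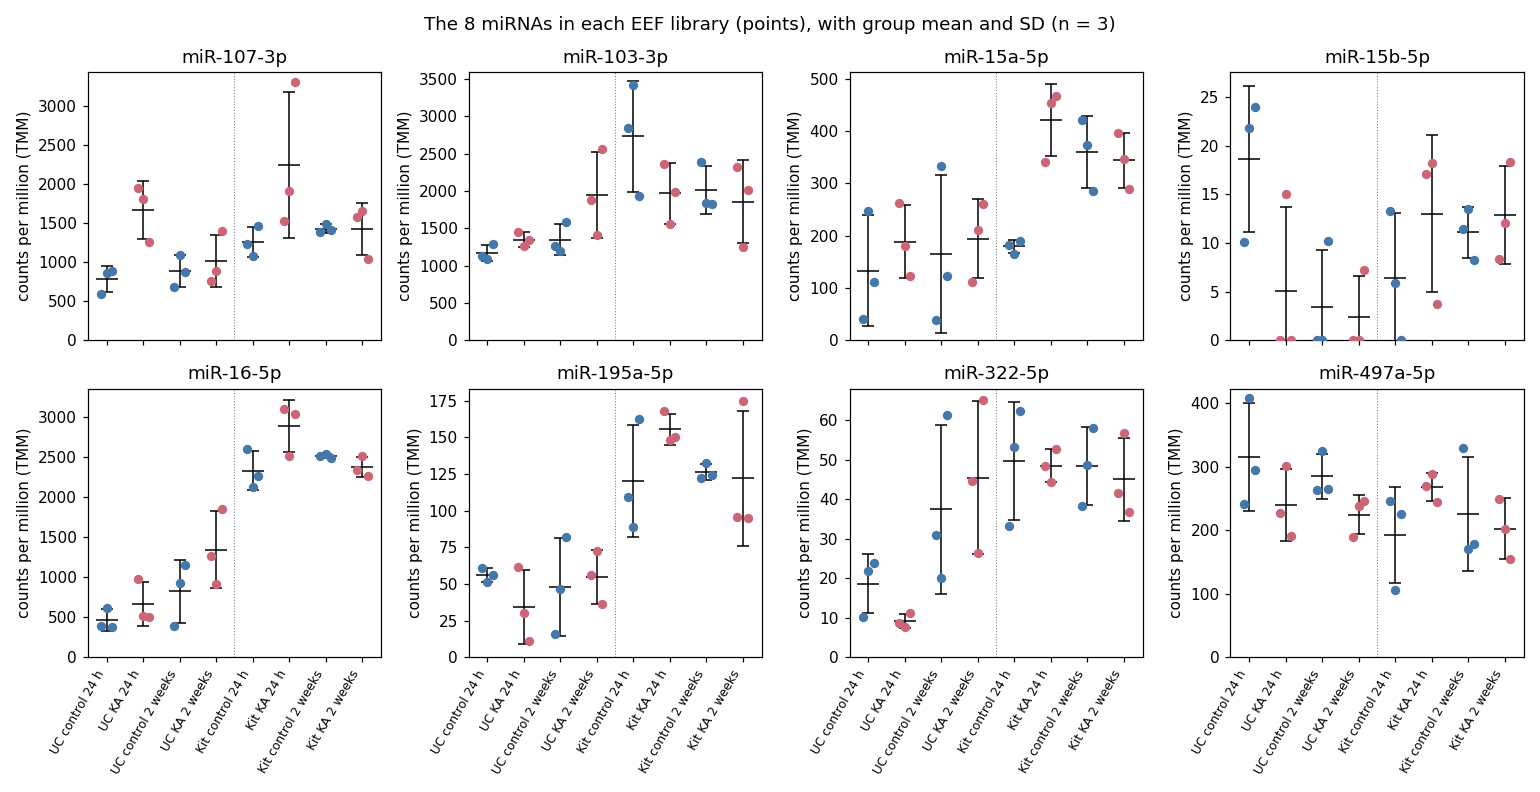
CPM (TMM, linear axis from 0, own scale in each panel) of each of the 8 members in the 8 groups, with 1 point a library (blue, PBS control; red, KA) and the group mean ± SD (n = 3) in black. miR-107-3p lies above its controls at 24 h on both sides of the dotted line between UC and kit, and miR-16-5p and miR-195a-5p lie higher in every kit group.

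At 24 h, the first comparison was KA against PBS within each method, from the contrast that chose the members. With UC, miR-107-3p measured 595, 867 and 893 CPM in the controls and 1951, 1810 and 1253 CPM after KA. Every KA library lay above every control library, and the fitted log2 difference was 1.09 ± 0.31 (SE; 2.12-fold). With the kit, the controls measured 1231, 1084 and 1461 CPM and the KA libraries 1528, 1912 and 3299 CPM. These groups did not overlap either, but the lowest KA library lay close to the highest control, and the log2 difference of 0.83 ± 0.31 (1.78-fold) came down to 0.40 without KA replicate 3. In these bulk fractions, a change in the number of vesicles of one kind and a change in the miRNA content per vesicle cannot be told apart.

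miR-103-3p did not show the same pattern. With UC it measured 1130, 1086 and 1292 CPM in controls and 1452, 1260 and 1343 CPM after KA, overlapping ranges with a log2 difference of 0.21 ± 0.29. With the kit it measured 2841, 3417 and 1939 CPM in controls and 2367, 1555 and 1994 CPM after KA, a log2 difference of -0.47 ± 0.30. Thus the only other miRNA with the seed of miR-107-3p was lower rather than higher in the kit libraries after KA, with overlapping groups.

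Among the miR-15/16 members, miR-15a-5p stood out with the kit: controls held 183, 166 and 190 CPM and KA libraries 341, 453 and 467 CPM. The groups were well apart, with a log2 difference of 1.22 ± 0.32 (2.33-fold). miR-15a-5p also appeared in the study's own list for this contrast, and its value is not independent of that choice. With UC, miR-15a-5p ran from 40.4 to 248 CPM in controls and from 123.1 to 262 CPM after KA, and the log2 difference of 0.47 ± 0.52 lay within its error.

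miR-16-5p measured 383, 619 and 383 CPM in UC controls and 980, 513 and 503 CPM after KA. With the kit it measured 2602, 2132 and 2261 CPM in controls and 3110, 2511 and 3040 CPM after KA. Both pairs of groups overlapped, and the log2 differences were 0.52 ± 0.36 and 0.31 ± 0.25. miR-195a-5p, which differs from it at few bases, had differences of -0.64 ± 0.66 with UC and 0.36 ± 0.37 with the kit. miR-497a-5p, from the same cluster as miR-195a, had -0.39 ± 0.37 and 0.46 ± 0.38. miR-322-5p had -1.02 ± 0.98, from 1 read in each UC KA library, and -0.03 ± 0.44 with the kit.

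Over all 8 members, 1 had groups that did not overlap with UC (miR-107-3p), against 9.29% of all miRNAs tested, and with the kit there were 2 (miR-107-3p and miR-15a-5p), against 9.81%. The edgeR quasi-likelihood test called 2.86% of the UC table and 4.62% of the kit table at an unadjusted p under 0.05. Since the same contrast chose the members, nothing is read from these counts. The median log2 difference of the members was -0.09 with UC, beside 0.06 over all miRNAs, and 0.41 with the kit, beside 0.09. When libraries were scaled to the reference miRNAs miR-92b-3p and miR-25-3p instead, the kit median over all miRNAs moved to -0.40. Both references lay above 0 in the kit contrast with TMM (median 0.48). Under reference scaling, miR-107-3p came to 0.33 ± 0.40, within its error, miR-15a-5p to 0.72 ± 0.44 and miR-103-3p to -0.98 ± 0.42. The kit values of miR-16-5p (-0.18) and miR-195a-5p (-0.15) turned below 0 under it. The UC value of miR-107-3p was 1.12 under that scaling. Summed red cell miRNAs lay between 680 and 859 CPM in the kit controls and between 534 and 758 CPM in the kit KA libraries, so the groups overlapped. That sum is nearly all miR-486b-5p, which differed by -0.27 ± 0.42, whereas the other 4 of the 5 red cell miRNAs tested lay above 0 in this contrast, like miR-107-3p and miR-15a-5p. miR-144-3p differed by 1.78 ± 1.00 (7 reads in all controls, 32 after KA), miR-451a by 1.32 ± 0.93 (12 and 38 reads) and miR-144-5p by 0.74 ± 1.24 (3 and 7 reads), and miR-486b-3p had 0 and 4 reads. Their part in the members' values was not tested.

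**Figure D2:**
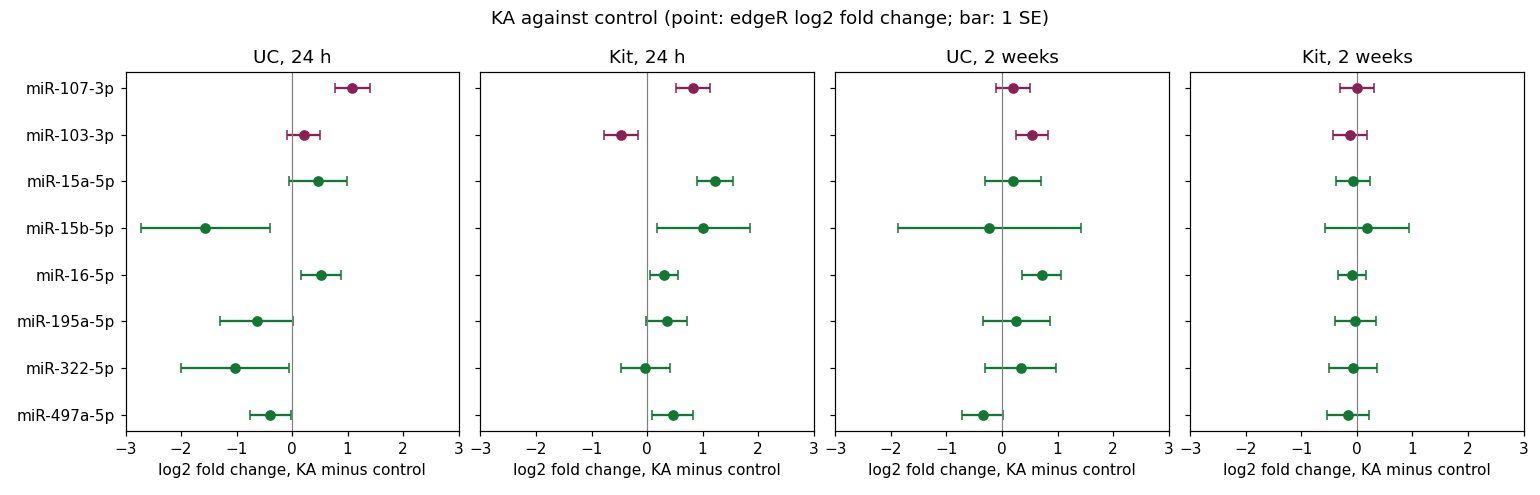
Fitted log2 difference between KA and control for each member, with bars of 1 SE, in 4 panels for 24 h and 2 weeks with each method (purple, miR-107-3p and miR-103-3p; green, miR-15/16 members). miR-107-3p lies above 0 at 24 h with both methods (1.09 and 0.83), miR-103-3p lies on both sides of 0 (0.21 and -0.47), and at 2 weeks the kit values lie between -0.16 and 0.18.

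The ratio of miR-107-3p to miR-103-3p reads is independent of library scaling. In UC libraries it was 0.527, 0.799 and 0.691 in the 24 h controls and 1.34, 1.44 and 0.933 after KA. The groups did not overlap, and miR-107-3p outnumbered miR-103-3p in 2 of the 3 KA libraries and in no control. With the kit the ratio was 0.433, 0.317 and 0.754 in the controls and 0.645, 1.23 and 1.65 after KA, so that the lowest KA library fell among the controls. The mean log2 ratio was higher after KA by 0.88 ± 0.26 (SE) with UC and by 1.22 ± 0.54 with the kit, values that come from the contrast used for the choice and carry no test.

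At 2 weeks, the ratio in UC libraries was 0.543, 0.917 and 0.548 in controls and 0.407, 0.634 and 0.545 after KA. With the kit it was 0.578, 0.808 and 0.775 in controls and 0.677, 1.32 and 0.518 after KA. The log2 ratio differed by -0.32 ± 0.31 with UC (exact two-sided permutation test, p = 0.5) and by 0.12 ± 0.43 with the kit (exact permutation p = 0.9), where 3 against 3 libraries allow no p below 0.1. With libraries of the same replicate number taken as pairs, the ratio was lower after KA in 3 of 3 UC pairs, by 0.42, 0.53 and 0.0084 on the log2 scale (exact sign permutation p = 0.25, the smallest that 3 pairs allow), and higher in 2 of 3 kit pairs (exact p = 0.75). No KA group at this time lay apart from its controls.

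The summed reads of miR-107-3p and miR-103-3p, which do not depend on how reads are divided between both names, measured 1725, 1953 and 2185 CPM in the UC 24 h controls and 3403, 3070 and 2596 CPM after KA. The groups did not overlap, with a log2 difference of 0.62 ± 0.28. With the kit the sum was 4073, 4500 and 3401 CPM in controls and 3895, 3467 and 5293 CPM after KA, and the difference was 0.06 ± 0.26. With the kit, then, the pair as a whole was at nearly the same level, and the higher miR-107-3p stood beside a lower miR-103-3p.

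The deposited modification tables list, for each miRNA, reads that depart from the reference, with the position and the bases, and they allow the pair to be looked at by read class. Reads whose first listed 3′ alteration fell at base 22 or before did not carry the base that separates the pair. Of these, 640 were counted as miR-107-3p and 0 as miR-103-3p. Reads first altered after base 22 did carry it, and of these 335 were miR-107-3p and 2335 were miR-103-3p. Reads with no listed alteration numbered 6661 and 7428, and the tables do not give their lengths.

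The share of miR-107-3p within the pair thus differed with the read class. Among reads altered after base 22 it was 12.5% (exact 95% interval 11.3 to 13.9, counting error only), a ratio of 0.143, whereas unaltered reads had a ratio of 0.897. In single libraries the ratio ran from 0.0108 to 0.201 in the former class and from 0.317 to 1.95 in the latter, without overlap.

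With libraries pooled by group, the higher ratio at 24 h lay in the unaltered reads. There it went from 0.779 in UC controls to 1.54 in UC KA libraries (258 and 331 reads against 539 and 351, miR-107-3p first), and from 0.529 to 1.28 with the kit (785 and 1484 against 1903 and 1484). Single kit KA libraries ran from 0.729 to 1.95, and the controls from 0.317 to 0.834, so that these groups overlapped. Among reads altered after base 22, the pooled counts were 13 and 91 in UC controls and 12 and 100 after KA, a ratio of 0.143 and then 0.120. With the kit they were 75 and 499 in controls and 81 and 467 after KA, a ratio of 0.150 and then 0.173.

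**Figure D3:**
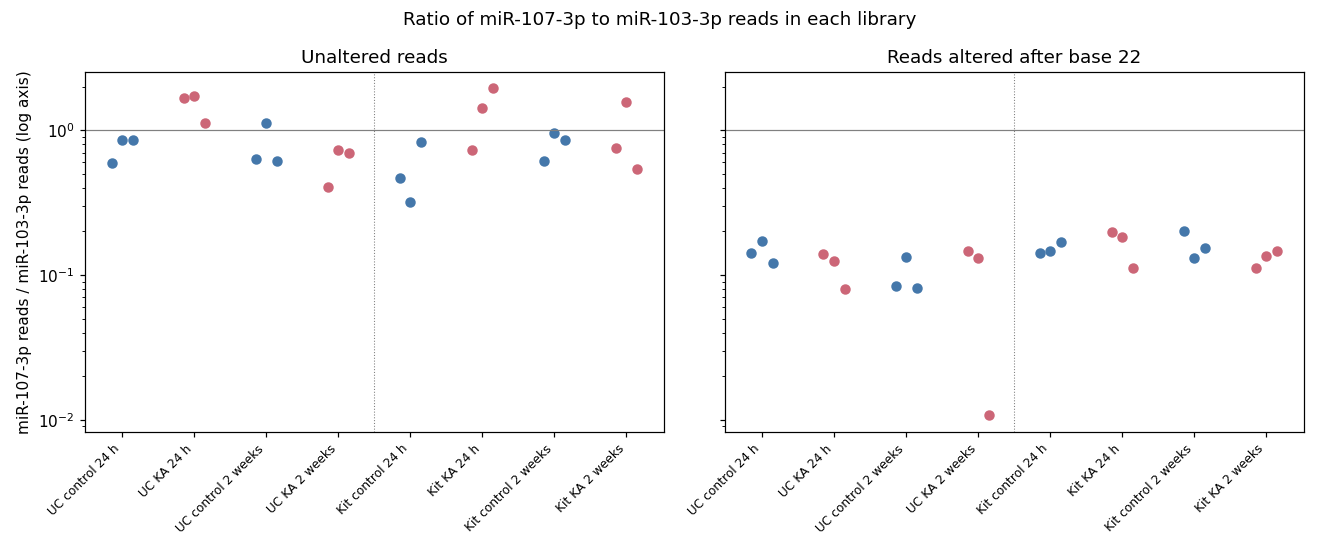
Ratio of miR-107-3p to miR-103-3p reads (log axis; grey line at equal reads) in each library, 1 point a library (blue, control; red, KA), for unaltered reads and for reads first altered after base 22. The unaltered class lies between 0.317 and 1.95. With each method its highest single library (1.71 with UC, 1.95 with the kit) is a KA library at 24 h. A kit KA library at 2 weeks reaches 1.56, and a UC control at 2 weeks reaches 1.12. The altered class does not exceed 0.201 in any library.

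With the model refitted on reads altered after base 22 alone, a choice made after these values were seen, the 24 h log2 difference of miR-107-3p was -0.02 ± 0.71 with UC and -0.40 ± 0.45 with the kit. That of miR-103-3p was 0.24 ± 0.38 and -0.59 ± 0.36. The UC counts behind it, 13 and 12 miR-107-3p reads, are few and its error is wide. Leaving out only the miR-107-3p reads altered at base 22 or before gave 1.11 ± 0.32 with UC and 0.91 ± 0.32 with the kit. How the read counter divided reads too short to reach base 22 was not tested.

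In both miR-103-3p and miR-107-3p, the most frequent 3′ alteration was a uridine (U) at base 23. miR-103-3p carried a U in place of base 23 in 1507 reads found in all 24 libraries, and a pair of U bases there in a further 304. miR-107-3p had a U at base 23 in 317 reads and at base 22 in 148. Altered reads made up 23.3% of miR-103-3p reads with UC (exact 95% interval 21.6 to 25.1) and 24.6% with the kit (23.6 to 25.6), against 9.89% (8.50 to 11.4) and 14.1% (13.2 to 14.98) for miR-107-3p. The counted shares therefore differed between both names with both methods, beyond counting error. They depend on how reads that do not separate the pair were divided, since all 640 reads altered at base 22 or before were counted as miR-107-3p. The part of that division in the difference was not tested.

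**Figure D4:**
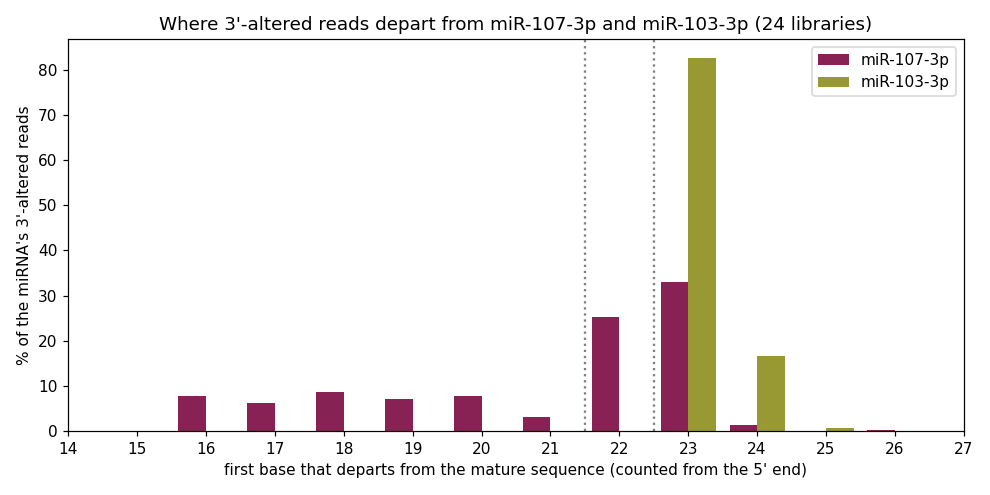
Share (percent) of each miRNA's 3′-altered reads by the first base that departs from the mature sequence, over the 24 libraries, with dotted lines around base 22. miR-103-3p has no bar at base 22 or before, where miR-107-3p has 640 reads, and its bar at base 23 reaches 82.7%.

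miR-322-5p was the most often altered member. Altered reads were 24 of 44 with UC (54.5%, exact 95% interval 38.8 to 69.6) and 84 of 180 with the kit (46.7%, 39.2 to 54.2), and 83 of them carried a U added after the last reference base, in 20 libraries. The other members lay lower, at 7.50% and 10.5% for miR-16-5p, 6.62% and 7.69% for miR-15a-5p, 4.60% and 6.19% for miR-497a-5p, and 4.00% and 4.48% for miR-195a-5p, with UC and the kit in turn. miR-15b-5p had 2 altered reads of 11 and 14 of 43.

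The share of altered reads was tested over the 146 miRNAs with at least 10 reads in every library. Between kit and UC, permutation tests called 31 of them after adjustment, 21.2%, and 0 of the 4 members tested. miR-107-3p was at 16.2 ± 5.47% (SD, n = 12) with the kit and 10.4 ± 4.74% with UC, a difference of 5.72 points (permutation p = 0.0133, adjusted 0.0546). miR-16-5p (1.81 points), miR-497a-5p (1.78 points) and miR-103-3p (1.44 points) differed by less than their spread. Between KA and control, exact permutation tests within time called 0 of the 152 UC miRNAs and 0 of the 196 kit miRNAs after adjustment, with 7 in each at an unadjusted p under 0.05. Of the members tested there, the differences of miR-103-3p were 0.11 points with UC (exact p = 0.96) and -0.998 points with the kit (exact p = 0.475), and those of miR-16-5p were -0.41 points (exact p = 0.855) and 1.46 points (exact p = 0.55).

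KA was next compared with PBS at 2 weeks, in libraries that did not choose the members by miR-107-3p. With UC, miR-107-3p measured 688, 1096 and 868 CPM in controls and 765, 892 and 1396 CPM after KA, with overlapping groups and a log2 difference of 0.20 ± 0.31 (edgeR adjusted p = 0.925; 95% interval half-width 0.61). With the kit it measured 1382, 1491 and 1414 CPM in controls and 1574, 1651 and 1041 CPM after KA. The log2 difference was -0.01 ± 0.31 (edgeR adjusted p = 0.999), with a 95% half-width of 0.60.

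miR-103-3p at 2 weeks measured 1269, 1196 and 1584 CPM in UC controls and 1881, 1407 and 2561 CPM after KA, a log2 difference of 0.53 ± 0.29 (edgeR adjusted p = 0.597). With the kit it measured 2392, 1845 and 1824 CPM in controls and 2324, 1248 and 2009 CPM after KA, a difference of -0.12 ± 0.30 (edgeR adjusted p = 0.998). Neither passed the test.

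miR-16-5p was the only member past an unadjusted p of 0.05 in this comparison with UC, 1 of 8 beside 7.86% of all miRNAs. It measured 387, 923 and 1154 CPM in controls and 1267, 912 and 1859 CPM after KA, so the groups overlapped, and the log2 difference of 0.72 ± 0.35 (1.64-fold) had an edgeR p of 0.0459 and an adjusted p of 0.577, where 0.952% of all miRNAs passed. It came to 0.39 without KA replicate 3 and to 0.41 without control replicate 1. The summed red cell miRNAs were 1519 CPM in that KA replicate 3, all of it miR-486b-5p. The other KA libraries held 357 and 390 CPM and the controls 433 to 501 CPM. The neuronal sum (47854 CPM) and the sum of miR-25-3p and miR-92b-3p (1779 CPM) were also the highest of the UC libraries in that replicate. The part of these miRNAs in the result was not tested. miR-16-5p too was on the study's list for this contrast.

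The remaining members did not pass with UC: miR-15a-5p differed by 0.19 ± 0.50, miR-195a-5p by 0.26 ± 0.60 and miR-322-5p by 0.34 ± 0.64. miR-497a-5p measured 263, 326 and 266 CPM in controls and 190, 238 and 246 CPM after KA, and its groups did not overlap (1 of 8 members, beside 10.7% of all miRNAs), but its difference of -0.35 ± 0.37 had an edgeR p of 0.343. With the kit, 0 of 8 members passed at an unadjusted p under 0.05, beside 2.69% of all miRNAs, and 0 had groups that did not overlap, beside 5.19%. The kit log2 differences of the members ranged from -0.16 (miR-497a-5p) to 0.18 (miR-15b-5p). The median over the members was 0.23 with UC, beside 0.02 over all miRNAs, and -0.07 with the kit, beside -0.01. The control miRNA miR-25-3p was itself higher by 0.75 after KA with UC, and scaling to it and miR-92b-3p moved the UC median over all miRNAs to -0.54, miR-16-5p to 0.11, miR-107-3p to -0.42 and miR-103-3p to -0.19.

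The comparisons of 2 weeks with 24 h use the same libraries as the KA comparisons, so their values are set beside them and not counted as separate support. In the controls, miR-16-5p was higher at 2 weeks by 0.82 ± 0.36 with UC (edgeR adjusted p = 0.970), the 1 member of the 7 other than miR-107-3p past the unadjusted threshold, beside 4.05% of all miRNAs. With the kit it was miR-15a-5p, at 183, 166 and 190 CPM at 24 h and 421, 373 and 286 CPM at 2 weeks. Its control groups did not overlap, as in 8.65% of all miRNAs, and the log2 difference of 1.00 ± 0.32 had an edgeR p of 0.00524 and an adjusted p of 0.953, again 1 of 7 members, beside 3.65% of all miRNAs. The kit controls at 24 h thus held the lowest miR-15a-5p of the 4 kit groups. Those same libraries were set against KA at 24 h in the contrast that put miR-15a-5p on the study's list. Its p-value between times is therefore no independent test, and nothing is read from its call. Of the 5 red cell miRNAs tested, 4 lay above 0 in the same contrast. miR-144-3p differed by 2.25 ± 0.98, miR-144-5p by 2.54 ± 1.06 and miR-451a by 1.60 ± 0.92, each with an edgeR adjusted p of 0.953. Of the 43 miR-144-3p reads in the 2-week controls, 37 were in replicate 2, beside 4 and 2 in the others. Their part in the miR-15a-5p value was not tested.

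After KA, 2 of the 7 other members passed between 24 h and 2 weeks with UC before adjustment, beside 10.5% of all miRNAs. miR-16-5p differed by 1.01 ± 0.35 (edgeR adjusted p = 0.198). In the same contrast the red cell miRNA miR-486b-5p differed by 0.86 ± 0.39 (edgeR adjusted p = 0.402) and the reference miR-25-3p by 0.93 ± 0.38 (edgeR adjusted p = 0.308), both past the unadjusted threshold. Their part in the miR-16-5p value was not tested. The 2-week UC libraries also belong to the contrast that put miR-16-5p on the study's list. Its p-values between times, here and in the UC controls, are therefore no independent tests, and nothing is read from its calls. miR-322-5p went from 1 read in each library, 7.54 to 11.2 CPM, to between 4 and 9 reads, 26.4 to 65.1 CPM, a log2 difference of 2.21 ± 0.84 (edgeR adjusted p = 0.268) that depends on few reads. Its groups did not overlap, as in 11% of all miRNAs. With the kit, 0 of 7 passed, beside 3.08% of all miRNAs. The 8 log2 differences ran from -0.66 (miR-107-3p) to -0.07 ± 0.43 (miR-322-5p), with a median of -0.28, beside -0.05 over all miRNAs. They share the 24 h KA libraries of the contrast that chose the members, so nothing is read from their direction. miR-107-3p, given as a description, differed by -0.72 ± 0.31 with UC and -0.66 ± 0.31 with the kit after KA, and by 0.17 and 0.18 in the controls.

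The KA change at 2 weeks minus that at 24 h was -0.89 ± 0.44 for miR-107-3p with UC and -0.84 ± 0.44 with the kit, given as a description. For miR-103-3p it was 0.32 ± 0.41 and 0.35 ± 0.43, and for miR-15a-5p with the kit -1.29 ± 0.45. These values use the 24 h libraries of the contrast that chose the members, so they carry no test for any member. Over all miRNAs, 0.476% with UC and 0% with the kit passed this contrast after adjustment.

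The isolation methods were compared over all 24 libraries, a contrast that the choice of members did not use. UC and kit libraries came from separate pools of hippocampi, of different size in the study's methods. A difference between methods therefore cannot be told apart from a difference between these sets of libraries. Of all 603 miRNAs tested, 52.6% differed after adjustment and 29.0% were higher with the kit. Of the members, 6 of 8 were higher with the kit and 0 were lower, and their median log2 difference was 0.76, beside 0.11 over all miRNAs.

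miR-16-5p differed most. It ran from 383 to 1859 CPM (median 766) in the 12 UC libraries and from 2132 to 3110 CPM (median 2513) in the 12 kit libraries, with no overlap, a log2 difference of 1.73 ± 0.18 (3.32-fold, edgeR adjusted p = 1.16e-11). Its near relative miR-195a-5p ran from 11.2 to 81.7 CPM with UC and from 88.8 to 175 CPM with the kit, again with no overlap (1.46 ± 0.25, adjusted p = 2.34e-06). miR-15a-5p was higher by 0.91 ± 0.22 (adjusted p = 0.000512) and miR-322-5p by 0.84 ± 0.30 (adjusted p = 0.0167).

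miR-107-3p and miR-103-3p were higher with the kit by nearly the same amount, 0.59 ± 0.15 (adjusted p = 0.00107) and 0.57 ± 0.16 (adjusted p = 0.00186). miR-497a-5p, processed from the same cluster as miR-195a, did not pass the test at -0.24 ± 0.19 (adjusted p = 0.291): it ran from 190 to 408 CPM with UC and from 106.6 to 329 CPM with the kit. miR-15b-5p did not pass either, at 0.67 ± 0.55 (adjusted p = 0.308). With both reference miRNAs as the scale and the median over all miRNAs at -0.35, miR-16-5p (1.30) and miR-195a-5p (0.97) were still called higher, miR-497a-5p was called lower (-0.74), and miR-107-3p (0.13), miR-103-3p (0.11), miR-15a-5p (0.53) and miR-322-5p (0.45) were not called. With only miRNAs of at least 10 reads in 6 libraries, miR-107-3p (0.30), miR-103-3p (0.28) and miR-322-5p (0.54) lost the call as well, and miR-497a-5p was called lower (-0.54).

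Markers of other cell types moved with the method. Of the 7 red cell miRNAs, 5 were tested and 4 were higher with the kit after adjustment (miR-451a by 4.29 ± 0.71), and their summed level was 289 to 1519 CPM with UC and 437 to 1776 CPM with the kit. Both endothelial miRNAs were higher (miR-126a-5p by 3.34 ± 0.19), with sums of 239 to 535 CPM against 2140 to 3269 CPM. Of the 3 neuronal miRNAs, 2 were higher (miR-128-3p by 1.13 ± 0.15), and of the 3 myeloid miRNAs, 1 was (miR-223-3p by 2.37 ± 0.77), at sums of 7.74 to 116 CPM with UC and 48.5 to 139 CPM with the kit. miR-451a and miR-223-3p each had 2 reads in all UC libraries, against 141 and 35 in all kit libraries. The part of these markers in the members' differences, and that of the lower library totals with UC, was not tested.

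**Figure D5:**
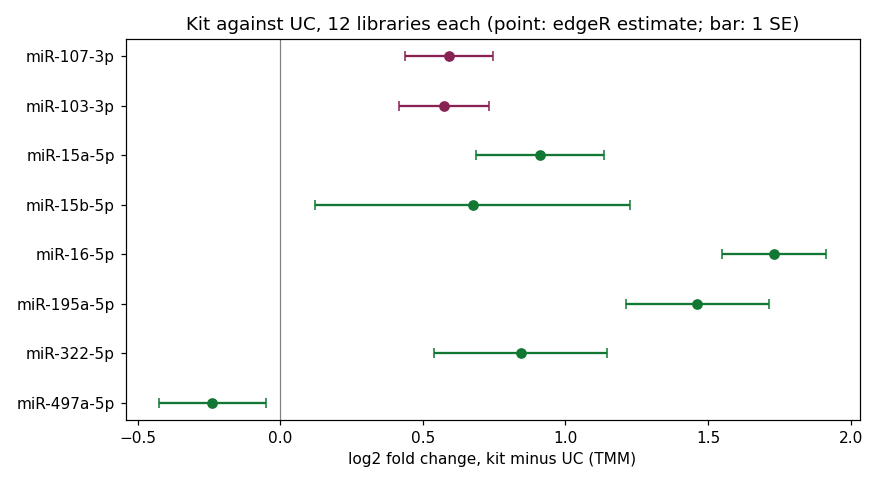
Fitted log2 difference between kit and UC for each member over 12 libraries each, with bars of 1 SE and a grey line at 0 (purple, miR-107-3p and miR-103-3p; green, miR-15/16 members). miR-16-5p (1.73) and miR-195a-5p (1.46) lie farthest above 0, and miR-497a-5p (-0.24) lies below 0.

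The opposite arms of the members' hairpins were rare. Of 10 names, 6 were tested between methods, and 3 were higher and 1 was lower with the kit after adjustment. The lower one was miR-16-1-3p, at 31.1 ± 18.6 CPM (SD, n = 12) with UC and 14.4 ± 6.59 CPM with the kit (log2 difference -0.98 ± 0.36, edgeR adjusted p = 0.0201), whereas miR-16-5p from the other arm was higher. miR-15b-3p (2.41 ± 0.79), miR-322-3p (2.19 ± 0.73) and miR-195a-3p (1.75 ± 0.69) were higher. miR-107-5p had 1 read with UC and 9 with the kit, too few to follow KA. miR-195b, the non-member with the AGCAGCA seed, was higher with the kit by 2.49 ± 0.45 (adjusted p = 4.96e-06), and of the miRNAs clustered with miR-322 none of miR-351-5p, miR-450b-5p and miR-542-3p passed.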

How the data were processed

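Small RNA libraries from EEFs were sequenced (Illumina MiSeq), and the authors trimmed adapters and mapped reads to miRBase v21 hairpins with the Chimira web server. The deposited values are raw read counts per mature miRNA and, in a second table per library, read counts per modification pattern, with no normalization. How reads that match several hairpins were assigned is not given in the sources used here, which bears on miR-103-3p, miR-107-3p and miR-16-5p. Both tables gave the same total for every miRNA in every library (25752 pairs).

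Members and lists were chosen with earlier results of these data known. The named miRNAs are the 8 members, their opposite arms, miRNAs of the same seed or cluster, marker miRNAs of red, myeloid, endothelial and neuronal cells, the references (miR-92b-3p, miR-25-3p), and the 3 miRNAs whose deviations from group means were most like those of miR-107-3p. Counts were fitted per method over 12 libraries with edgeR 4.0.16 in R 4.3.3 (quasi-likelihood test, TMM, 1 coefficient per group) on miRNAs over 1 CPM in at least 6 libraries, and over all 24 libraries for kit against UC. p-values were adjusted by Benjamini-Hochberg over all miRNAs tested, with a threshold of 0.05. Deviations of same-numbered KA and control libraries from their group means correlated over 0.1 in 3 of 3 pairs at 2 weeks with each method (0.111 to 0.214 with UC, 0.192 to 0.310 with the kit). At 24 h, 0 of 3 UC pairs and 1 of 3 kit pairs did so. The numbers were therefore taken as pairs at 2 weeks, in the paired ratio test and the block within 2 weeks. The main edgeR tests and the first ratio tests at 2 weeks were unpaired. The pairing comes from the data, since the labels give only a number. Pairs of different number reached at most 0.0377 (UC) and -0.00164 (kit) at 2 weeks, but 0.206 with the kit at 24 h. A value over 0.1 therefore does not by itself show pairing. Shares of altered reads were compared with permutation tests (100000 resamples for kit against UC, all 400 arrangements for KA against control) in miRNAs with at least 10 reads in every library. A listed position was taken as the first base that departs from the mature sequence, since at that offset 0.0944% of 269029 reads matched the hairpin, against 18.6 to 21.3% at neighbouring offsets.

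Alternatives were RLE factors, library size, scaling to the references, no filter, at least 10 reads in 6 libraries, limma 3.58.1 (voom), DESeq2 1.42.0, a replicate block (over both times, or within 2 weeks), only the libraries compared, summed miR-103-3p and miR-107-3p reads, and each library left out. Depth was 85436 to 676726 reads per library. Intervals cover counting error only, since reads carried no molecular identifiers. The scripts were tested on simulated data. Python 3.11.15, pandas 2.3.3, numpy 2.4.6, scipy 1.17.1 and matplotlib 3.10.9 were also used. Sequences came from RefSeq (GRCm38.p6) and positions from GENCODE M21.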

Additional observations from a re-analysis of the deposited data

How the results depend on the processing

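Of the recomputed values, 636 kept their direction and side of the threshold or stayed close to the reported value, 32 moved, 28 lost and 4 gained a call, and 15 changed sign. The cause was not tested for any of them.

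For miR-107-3p at 24 h, the summed pair gave 0.62 (UC) and 0.060 (kit) and reads altered after base 22 alone gave -0.016 and -0.40. Reference scaling (to miR-92b-3p and miR-25-3p) gave 0.33 ± 0.40 with the kit. Leaving out single libraries gave 0.91 to 1.26 (UC) and 0.40 to 1.05 (kit). At 2 weeks with UC, the number of members called was 0 with RLE factors, library size, reference scaling, no filter, at least 10 reads in 6 libraries, DESeq2 and only the 6 libraries compared, and 0 to 2 when single libraries were left out. It was 0 without control replicate 1, without KA replicate 3, and without UC control replicate 3 or KA replicate 2 of the 24 h groups. It was 2 without control replicate 2 or 3 or KA replicate 2. miR-107-3p then turned to -0.42 and miR-103-3p to -0.19 under reference scaling, and miR-107-3p ranged from -0.13 to 0.39 over left-out libraries. miR-107-3p at 2 weeks with the kit was 0.047 with no filter and -0.085 to 0.18 over left-out libraries, and miR-103-3p was -0.31 to 0.18. The kit log2 ratio of the pair ranged from -0.27 to 0.41.

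The member called between times in UC controls was lost (0) under reference scaling and at least 10 reads in 6 libraries, and without 24 h replicate 1 or 3 or 2 weeks replicate 2 or 3 (0 to 1 over left-out libraries). After KA with UC, 0 were called under reference scaling and 1 under the stricter filter. Between kit and UC, 3 members were called under reference scaling. For shares of altered reads between kit and UC, 1 member was called with at least 50 reads per library (miR-107-3p, adjusted p = 0.0415), with 3′ additions only (miR-107-3p, adjusted p = 0.0454) and without replicate 3 of every group (miR-103-3p, adjusted p = 0.0497), and left-out replicates gave 0 to 1.

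Replicate numbers were taken as pairs in the paired ratio test at 2 weeks, and not at 24 h. That choice was read from these data and not from the labels. A replicate block over both times gave miR-107-3p 1.13 (UC) and 0.81 (kit) at 24 h and 0.20 and 0.0098 at 2 weeks, a change of sign in the last. A block within 2 weeks, added after the data were seen, gave miR-107-3p 0.18 and -0.033, miR-103-3p 0.50 and -0.16, and miR-16-5p with UC 0.77. Neither block changed a call or a member count (1 with UC at 2 weeks, 6 between kit and UC), and the paired log2 ratio of the pair was -0.32 (UC) and 0.12 (kit).

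Counts over all miRNAs at an unadjusted p under 0.05 also moved. At 2 weeks with UC they were 33 as reported, 20 with DESeq2, 19 with the stricter filter and 17 with only the libraries compared, and reference scaling turned 20 higher and 13 lower into 0 and 32. At 24 h with the kit they were 24, or 14 with the stricter filter, and reference scaling turned 21 higher and 3 lower into 4 and 39. At 24 h with UC the stricter filter left 7 of 12. Depth limited miR-15b-5p, and miR-322-5p and miR-195a-5p with UC.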

Other observations

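Over the 24 libraries, the deviations of miR-107-3p from its group means (log2 CPM) were most like those of miR-130a-3p (Pearson r = 0.79), miR-154-5p (0.73) and miR-410-3p (0.71) among 189 miRNAs, whose median r was 0.15. The values share libraries, depth and scaling, and they are a description with no test. Among the members, miR-15a-5p came 5th (0.67), miR-16-5p 20th (0.49), miR-497a-5p 41st (0.39) and miR-103-3p 134th (-0.05). miR-103-3p, which shares all but 1 base with miR-107-3p, thus followed it less closely from library to library than most miRNAs did. With UC alone r for miR-103-3p was 0.40, and with the kit alone it was -0.37.

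Shortened miR-16-5p reads with added bases were noticed after the values were seen. Reads first altered at base 17 or before made up a median of 4.84% of miR-16-5p reads in UC libraries (1.56 to 8.89%, 55 of 1320 reads) and 5.92% in kit libraries (2.60 to 16.2%, 724 of 9510 reads), with overlapping ranges. The most frequent added bases from base 17 on were AGAGGGAC, in 150 reads from 17 libraries, 145 of them in kit libraries. miR-107-3p carried a similar purine-rich end, AGGAC from base 18 on, in 55 reads from 15 libraries, 52 of them in kit libraries.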
